A study of Mus musculus with 2 samples.

Results

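The 38 Hox genes and the limb identity factors Tbx4, Tbx5 and Pitx1 are described here in tdTomato+ mesenchymal cells of adult mouse skeletal muscle. Members were taken by gene symbol, and all 41 were found among the 28001 features of both single-cell tables. The study traced cells that had expressed Hic1, using mice of genotype Hic1CreERT2/CreERT2;Rosa26LSLtdTomato/tdTomato on strain C57BL/6J, in which tamoxifen (TAM) lets a Cre recombinase made from the Hic1 locus switch on the red reporter for good. In one group TAM was given to the pregnant dam by gavage at embryonic day (E) 10, as 1 dose of 7.5 mg, so that the cells seen in the adult descend from cells with an active Hic1 locus in the embryo. In the other group animals were injected at 8 weeks of age with 5 daily doses of 2.5 mg, which marks cells with an active Hic1 locus in the adult. The sample labels give postnatal day 56 as the time of collection in both groups, which leaves no time for the 5 doses from 8 weeks of age. The study's text gives a later collection for its adult-labelled cells than for its E10-labelled cells, with reference to earlier work. It does not say whether this library is meant. The age at collection of the adult-labelled group is therefore uncertain, and the groups cannot be taken as matched in age. According to the methods the tibialis anterior, a muscle of the lower hindlimb, was pooled from hindlimbs. Neither the number of animals nor whether this holds for both libraries is clear from the sources used here. Cells positive for tdTomato and negative for CD31, CD45, CD117, CD11b, F4/80 and Ter119 were sorted. That gate removes endothelial and blood cells, and the cells that remain are the ones that have or had an active Hic1 locus, not all stromal cells of the muscle. Each group was 1 library, so no difference below has a replicate check, no p-value is given, and age at labelling, age at collection, animals, library and software version cannot be told apart.

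Hox genes encode homeodomain transcription factors and lie in 4 clusters, HoxA to HoxD, in which gene order along the chromosome matches the order of expression along the body and limb axes. Genes with low paralogue numbers are used toward the head and the base of a limb, and those with high numbers toward the tail and the tip. Tbx5 is known as the T-box factor of the forelimb bud, Tbx4 as its hindlimb counterpart and Pitx1 as a homeodomain factor that acts upstream of Tbx4 in the hindlimb. Adult stromal cells are known to keep a Hox pattern that records where in the body they formed.

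After removal of barcodes with fewer than 1500 unique molecular identifiers (UMIs) or more than 10% mitochondrial UMIs, 6087 cells of the E10-labelled library (median 7648 UMIs) and 8567 cells of the adult-labelled library (median 7344 UMIs) were kept. No doublets were removed. The libraries shared 15 barcodes, 11 of them among kept cells. Clustering without the 41 members and the other listed genes gave 20 clusters, of which 8 were fibroblast-like by their markers. Fibroblast-like cells numbered 4159 and 7082 in the E10- and adult-labelled libraries, tenocyte-like cells 212 and 560, osteochondral-like cells 58 and 66, pericyte-like cells 430 and 393, and cells resembling smooth muscle cell progenitors (SMC progenitor-like) 264 and 138. Endothelial-like cells, which the CD31 gate should remove, numbered 20 and 53. Throughout, values are given for the E10-labelled library first and the adult-labelled library second. A level is the number of UMIs of a gene per 1000000 UMIs of a class of cells (CPM), which in 3' libraries needs no scaling for gene length. Brackets after a level or ratio hold 95% intervals that cover counting error only.

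The members together gave 23861 and 31005 UMIs, or 382 and 455 CPM over all kept cells. Of the 41 members, 23 and 24 reached 100 UMIs, and the difference was Hoxb7, which reached it only in the adult-labelled library. The 10 most abundant members held 79.2% and 80.8% of all member UMIs. The other 17 members stayed below 100 UMIs in both libraries, and they were Hoxa2, Hoxa4, Hoxa6, Hoxa13, Hoxb1, Hoxb5, Hoxb6, Hoxb8, Hoxb9, Hoxb13, Hoxc12, Hoxc13, Hoxd1, Hoxd3, Hoxd10, Hoxd12 and Hoxd13. In fibroblast-like cells the highest of these 17 was Hoxb6, at 1.01 CPM and 1.28 CPM. Hoxb13 and Hoxd12, which belong to the most 5' paralogue groups, had 0 UMIs in both libraries.

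Fibroblast-like cells of both libraries carried a HoxC and HoxA pattern centred on paralogue groups 9 and 10. Summed over each cluster, HoxC genes stood at 206 CPM (202-210) and 237 CPM (233-241), HoxA genes at 112 CPM (109-115) and 148 CPM (145-151), HoxB genes at 19.2 CPM (17.9-20.6) and 18.1 CPM (17.0-19.2) and HoxD genes at 16.7 CPM (15.5-18) and 19.8 CPM (18.7-21.0). HoxC genes therefore held 58.2% and 56.0% of all Hox UMIs of these cells and HoxD genes 4.73% and 4.69%. By paralogue group, groups 9 and 10 held 50.4% and 52.3%, groups 5 to 8 held 31.2% in each library, groups 1 to 4 held 12.6% and 9.01%, and groups 11 to 13 held 5.75% and 7.50%.

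The highest members in fibroblast-like cells were Hoxc10, at 54.0 CPM and 56.1 CPM, and Hoxa10, at 46.1 CPM and 67.1 CPM, both genes of the limb and lumbosacral domain. Hoxc9 followed at 44.9 CPM and 58.6 CPM and Hoxc6, a gene of the thoracic and limb domain, at 35.4 CPM and 46.5 CPM. Hoxc8 stood at 32.4 CPM and 36.1 CPM, Hoxa9 at 29.2 CPM and 33.0 CPM, and Hoxa7 at 18.5 CPM and 22.7 CPM. The order of these levels was not the same in both libraries, with Hoxc10 first in the E10-labelled cells and Hoxa10 first in the adult-labelled cells. Hoxc10 lay above 84.3% and 86.2% of all detected genes, or level with them, so these are mid to high levels for a transcript in these cells. The 5' ends of the clusters were low. Hoxc11 reached 13.2 CPM and 17.5 CPM and Hoxa11, which patterns the lower limb segment, 4.96 CPM and 11.1 CPM, while Hoxa13, a gene of the hand and foot, had 7 and 33 UMIs.

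**Figure D1:**
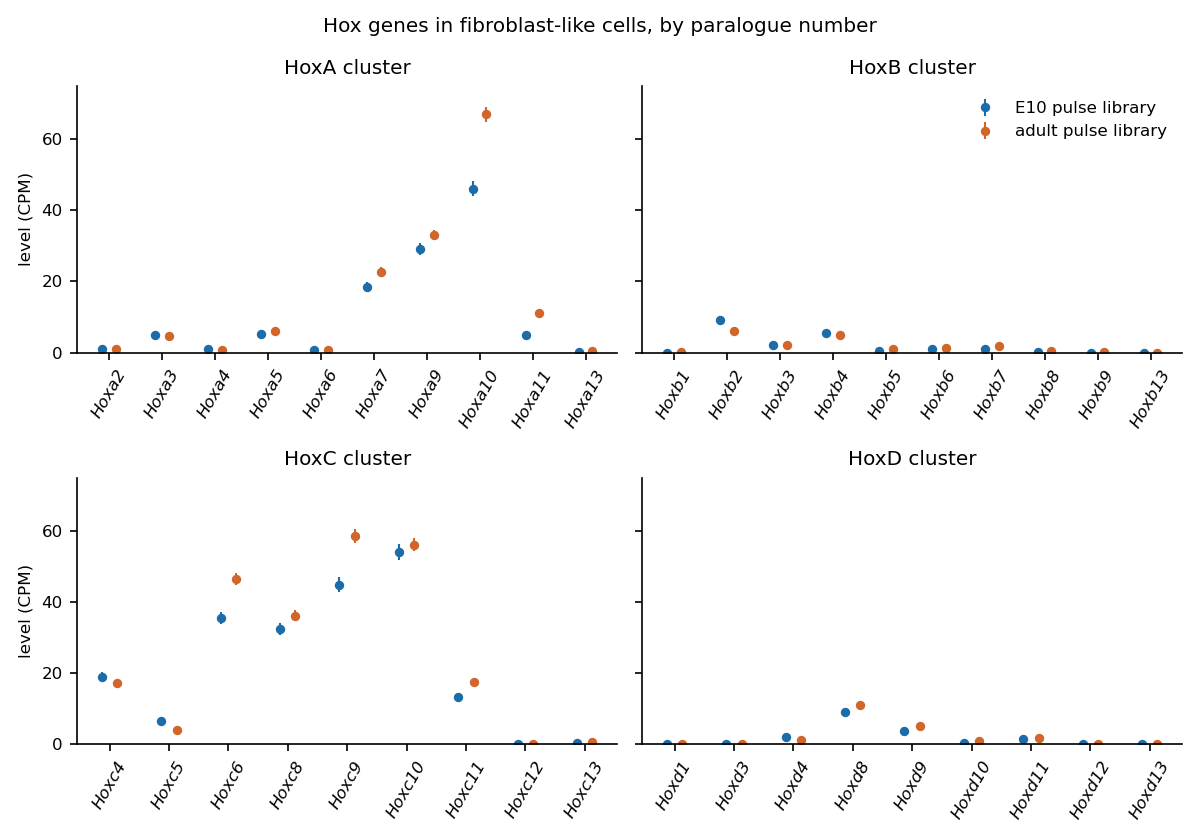
Levels in CPM (vertical axes) of the Hox genes of each cluster in paralogue order (horizontal axes) in fibroblast-like cells, with points for the E10-labelled and adult-labelled libraries and bars for 95% counting intervals. HoxA peaks at Hoxa10 (46.1 and 67.1 CPM) and HoxC at Hoxc9 and Hoxc10, while the HoxB and HoxD panels stay under 11 CPM.

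In GRCm38/mm10 coordinates the HoxA members lie at chr6:52162417-52260880, HoxB at chr11:96194316-96368256, HoxC at chr15:102921103-103036852 and HoxD at chr2:74668310-74765142. Annotated exons of neighbours overlap on the same strand for 62.3% of the exon bases of Hoxd3 and 52.3% of those of Hoxd4, for 15.04% of Hoxa2, 8.01% of Hoxa3, 8.70% of Hoxc10 and 5.37% of Hoxc5. Counts of Hoxd3 and Hoxd4 in particular are uncertain, because a read in a shared exon cannot be assigned to one gene.

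All 3 limb identity factors were detected in the fibroblast-like class, at lower levels than the abundant Hox genes. Tbx4 stood at 6.201 CPM (5.48-6.99) and 6.71 CPM, Tbx5 at 8.16 CPM (7.33-9.06) and 8.88 CPM, and Pitx1 at 8.11 CPM (7.29-9.01) and 8.88 CPM. The levels of Tbx5 and Pitx1 lay within each other's intervals, and Tbx4 was the lowest of the 3 in both libraries. The methods name hindlimb muscle as the source, and Tbx5, the forelimb bud factor, was at the level of Pitx1. The genes lie at chr11:85886422-85916097 (Tbx4), chr5:119832668-119885219 (Tbx5) and chr13:55825051-55836192 (Pitx1).

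When each cell was thinned to 1500 UMIs, a UMI of any Hox gene was found in 41.9% (40.4-43.4) and 45.8% (44.7-47.0) of fibroblast-like cells, against 86.2% and 89.2% unthinned. The median fibroblast-like cell held UMIs of 2 Hox genes, and 13.8% and 10.8% of these cells held none. In Schwann-like cells, which come from the neural crest, the thinned share was 25.7% of 140 cells and 19.0% of 21 cells (unthinned 65.0% and 66.7%, median depth 7085.5 and 5911 UMIs, against 8571 and 7666.5 in fibroblast-like cells). Hoxa10 was found in 7.69% and 9.26% of thinned fibroblast-like cells, 32.0% and 36.3% unthinned, and in 0.714% and 0% of thinned Schwann-like cells. The thinned shares of the limb factors in fibroblast-like cells were 1.25% and 1.16% for Tbx4, 1.15% and 1.10% for Tbx5 and 1.37% and 1.30% for Pitx1. None of the thinned Schwann-like cells held a UMI of these 3 factors. Unthinned, the 140 Schwann-like cells of the E10-labelled library held 0 UMIs of Tbx4, 0 of Tbx5 and 1 of Pitx1, and the upper limits of the ratio to the fibroblast-like level were 0.56, 0.43 and 0.65, so the factors were lower there than in fibroblast-like cells. The 21 Schwann-like cells of the adult-labelled library also held 0 UMIs of each, with upper limits above 2.

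Few cells held UMIs of more than 1 limb factor. Tbx4 and Tbx5 were found in the same cell in 16 and 22 fibroblast-like cells, where 24.9 and 25.2 would be met if each were spread over cells by depth alone. Tbx4 and Pitx1 shared 15 and 17 cells, against 25.5 and 26.4 by depth. Tbx5 and Pitx1 shared 30 and 42 cells, against 29.5 and 31.0. Hoxd8 and Hoxd9, neighbours in the HoxD cluster, shared 28 and 54 cells, against 16.1 and 23.4. Of these 4 pairs Hoxd8 with Hoxd9 lay furthest above the depth value in both libraries, and Tbx4 lay below it with each of the other limb factors, on small counts. Pairs with abundant Hox genes lay below it too. Tbx4 and Hoxc10 shared 98 and 110 cells, against 116 and 133, and Tbx5 and Hoxa10 shared 104 and 145, against 124 and 174. Hoxa10 with Hoxc10 also lay below the depth value, and Hoxa9 with Hoxa10 and Hoxc9 with Hoxc10 above it.

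Tenocyte-like cells differed from fibroblast-like cells mainly in the HoxD cluster. Summed HoxD genes stood at 151 CPM (129-175) and 83.9 CPM (75.4-93.0) in tenocyte-like cells, against 16.7 CPM and 19.8 CPM in fibroblast-like cells, and they held 28.3% and 19.99% of all Hox UMIs there. HoxC genes were at a like level in both classes, 224 CPM and 206 CPM in tenocyte-like cells. The promoters of Hoxd8, Hoxd9, Hoxd10 and Hoxd11, 4 of the HoxD genes that stood out, and of Tbx4 are shown. Hoxd4, which also stood out, is left out. The windows show the regions from which this neighbouring block and the hindlimb factor are read. They are RefSeq sequences on GRCm38.p6, the + strand, from 250 bases before to 50 after the start of the RefSeq gene, with CpG dinucleotides in capitals. For Tbx4 that start lies inside the GENCODE gene whose position is given above, so the window is not upstream of the GENCODE start.

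Hoxd8 (chr2:74704365-74704664): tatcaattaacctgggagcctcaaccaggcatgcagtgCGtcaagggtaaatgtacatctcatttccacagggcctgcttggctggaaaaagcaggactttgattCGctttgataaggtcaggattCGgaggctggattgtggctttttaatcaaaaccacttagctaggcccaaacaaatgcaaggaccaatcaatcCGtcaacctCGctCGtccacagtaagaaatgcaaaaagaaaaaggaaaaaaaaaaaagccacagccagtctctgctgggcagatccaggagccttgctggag
Hoxd9 (chr2:74697513-74697812): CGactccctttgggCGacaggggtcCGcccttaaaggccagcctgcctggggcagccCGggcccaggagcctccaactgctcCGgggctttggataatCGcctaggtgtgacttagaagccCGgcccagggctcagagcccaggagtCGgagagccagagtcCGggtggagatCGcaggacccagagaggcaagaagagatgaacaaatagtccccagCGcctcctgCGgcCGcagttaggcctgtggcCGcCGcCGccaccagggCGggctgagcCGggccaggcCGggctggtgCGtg
Hoxd10 (chr2:74691641-74691940): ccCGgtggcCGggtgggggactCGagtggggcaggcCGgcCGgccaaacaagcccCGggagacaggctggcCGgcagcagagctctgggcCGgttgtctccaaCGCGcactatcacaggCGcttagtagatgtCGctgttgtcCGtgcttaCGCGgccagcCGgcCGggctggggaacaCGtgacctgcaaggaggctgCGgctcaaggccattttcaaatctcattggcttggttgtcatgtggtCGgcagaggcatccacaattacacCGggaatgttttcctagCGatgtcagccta
Hoxd11 (chr2:74679308-74679607): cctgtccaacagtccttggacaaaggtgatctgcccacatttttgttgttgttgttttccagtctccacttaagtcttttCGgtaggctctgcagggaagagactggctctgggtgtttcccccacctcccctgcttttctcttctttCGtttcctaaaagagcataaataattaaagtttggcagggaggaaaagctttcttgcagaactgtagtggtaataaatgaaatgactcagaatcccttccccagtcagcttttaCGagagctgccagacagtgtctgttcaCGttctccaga
Tbx4 (chr11:85896515-85896814): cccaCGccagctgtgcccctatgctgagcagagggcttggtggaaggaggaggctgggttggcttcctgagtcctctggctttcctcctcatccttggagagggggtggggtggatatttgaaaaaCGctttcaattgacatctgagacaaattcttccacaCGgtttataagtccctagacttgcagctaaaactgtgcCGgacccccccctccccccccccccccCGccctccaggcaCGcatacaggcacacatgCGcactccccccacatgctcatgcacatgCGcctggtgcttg

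The 5 windows held 6, 20, 22, 4 and 8 CpGs in this order, and the 23 members with a RefSeq promoter entry held a median of 13, against 7 over all 27025 promoters. A T-box sequence, AGGTGTGA, occurred on either strand in 1 of the 23 member promoters, that of Hoxd9, and in 1.27% of all promoters. The Pitx sequence TAATCC occurred in 0 of the 23 and in 7.16% of all. The Hox-Pbx sequence TGATNNAT occurred in 3, Hoxa2, Hoxb1 and Hoxb8, and in 9.04% of all, and TATAAA in 4, Hoxb8, Hoxd4, Hoxd13 and Tbx4, and in 14.2% of all. Matches to different sequences may share bases.

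Hoxd8, the HoxD gene with the most UMIs, stood at 50.3 CPM (38.1-65.2) and 37.2 CPM (31.6-43.4) in tenocyte-like cells, against 9.06 CPM and 10.9 CPM in fibroblast-like cells. The ratio of tenocyte-like to fibroblast-like cells was 5.55 (4.13-7.35) and 3.42 (2.86-4.07), so the intervals lay above 2 in both libraries. Hoxd9 stood at 30.01 CPM and 15.1 CPM, with ratios of 8.24 (5.51-12.0) and 2.99 (2.25-3.92). Hoxd11, which patterns the lower limb segment with Hoxa11, stood at 31.8 CPM and 12.5 CPM, against 1.38 CPM and 1.80 CPM, ratios of 23.0 (14.8-35.3) and 6.98 (4.93-9.78). Hoxd10 had 16 and 29 UMIs in tenocyte-like cells, or 14.1 CPM and 6.74 CPM, against 0.37 CPM and 0.80 CPM, ratios of 38.3 (17.9-81.8) and 8.38 (5.08-13.6). Hoxd4, whose exons overlap those of Hoxd3, stood at 20.3 CPM and 11.1 CPM, ratios of 9.78 (5.90-15.6) and 9.73 (6.57-14.3). Every HoxD gene from Hoxd4 to Hoxd11 was therefore higher in tenocyte-like cells of both libraries, and for Hoxd8, Hoxd9, Hoxd10 and Hoxd11 the ratio was larger in the E10-labelled library, with intervals that did not overlap. Hoxd13, the last gene of the cluster, had only 3 and 2 UMIs in tenocyte-like cells. High HoxD levels were not particular to this class. Endothelial-like cells had Hoxd4 at 72.6 CPM and 18.2 CPM from 6 and 4 UMIs, and Hoxd8 at 12.1 CPM and 36.5 CPM from 1 and 8. Schwann-like cells had Hoxd8 at 28.1 CPM and 18.4 CPM, ratios to fibroblast-like cells of 3.10 (2.06-4.49) and 1.69 (0.35-4.96).

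Pitx1 and Tbx5 also differed in tenocyte-like cells, in opposite directions. Pitx1 stood at 21.2 CPM and 25.8 CPM, 2.61 times (1.65-3.95) and 2.90 times (2.34-3.57) its fibroblast-like level. Tbx5 had 3 and 8 UMIs, or 2.65 CPM and 1.86 CPM, ratios of 0.32 (0.07-0.96) and 0.21 (0.09-0.42). Tbx4 stood at 12.4 CPM and 6.04 CPM, with ratios of 1.99 (1.07-3.40) and 0.90 (0.58-1.34) that fell on opposite sides of 1. HoxA genes showed no common direction. Hoxa9 had ratios of 1.97 and 0.97, Hoxa7 ratios of 0.43 and 0.85, and Hoxa11 ratios of 1.25 and 0.34.

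A gene was counted as higher or lower where its ratio passed 2-fold in the same direction in both libraries and where its level over the class and fibroblast-like cells together predicted at least 20 UMIs in the class in both libraries. This limit includes the class itself, so it can admit a gene more easily where the gene is high there. By that rule 8 members could be counted in tenocyte-like cells, 0 of them higher and 0 lower, where 2.32% and 8.36% of all countable genes were. No HoxD gene entered this count. Hoxd8 and Hoxd9 reached the limit in the adult-labelled library, with 54.5 and 24.7 predicted UMIs. In the E10-labelled library they had 11.5 and 4.89, and the other HoxD genes fell short in both libraries. With at least 5 predicted UMIs, 19 members could be counted, 2 were higher (Hoxd8 and Pitx1, background 3.59%) and 1 lower (Tbx5, background 8.39%). The class was well marked, since the 8 tenocyte markers summed to 30958 CPM and 20450 CPM, against 170 CPM and 328 CPM in fibroblast-like cells. The 12 fibroblast markers were still at 14047 CPM and 19619 CPM, against 44094 CPM and 59712 CPM, and their part in the ratios was not tested.

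**Figure D2:**
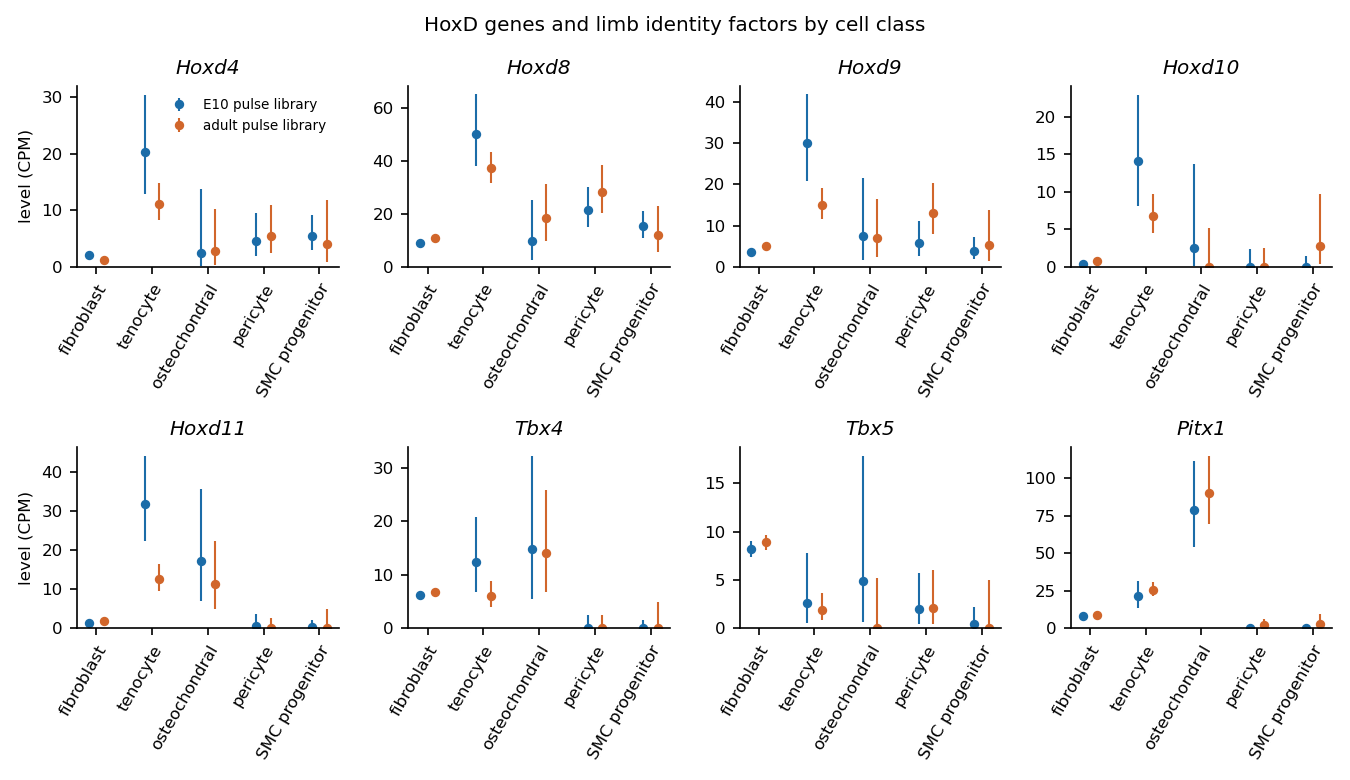
Levels in CPM (vertical axes) of 8 HoxD and limb identity genes in 5 classes of cells (horizontal axes), with points for each library and bars for 95% counting intervals. Among the classes shown, the HoxD genes are highest in tenocyte-like cells (Hoxd8 at 50.3 and 37.2 CPM) and Pitx1 in osteochondral-like cells (78.9 and 89.9985 CPM).

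Osteochondral-like cells were the highest in Pitx1 and had high levels of several 5' HoxA genes. Pitx1 stood at 78.9 CPM (54.0-111) and 89.9985 CPM, 9.72 times (6.55-14) and 10.1 times (7.69-13.2) its level in fibroblast-like cells, and this was close in both libraries. Hoxa10 stood at 153 CPM (117-196) and 155 CPM, ratios of 3.31 (2.53-4.27) and 2.31 (1.89-2.79). Hoxa9 stood at 106 CPM and 75.9 CPM, ratios of 3.64 (2.62-4.93) and 2.301 (1.72-3.01), and pericyte-like cells of the adult-labelled library had a like level, 75.2 CPM. Hoxa11 had 8 and 43 UMIs, or 19.7 CPM and 60.5 CPM, ratios of 3.98 (1.70-7.98) and 5.46 (3.91-7.44), and Hoxd11, its HoxD counterpart, 7 and 8 UMIs. Hoxa13 had 6 UMIs in these cells of the adult-labelled library, 8.44 CPM against 0.57 CPM in fibroblast-like cells, and 0 in the E10-labelled library. HoxA genes thus held 46.5% (40.5-52.6) and 53.6% (48.8-58.4) of Hox UMIs, against 31.6% and 35.0% in fibroblast-like cells, and groups 9 and 10 held 63.0% and 59.6%. Tbx4 had 6 and 10 UMIs and Tbx5 2 and 0. With at least 20 predicted UMIs 1 member could be counted, and it was neither higher nor lower (background 1.90% and 8.91%). With at least 5, 9 members could be counted, 2 of them higher, Hoxa9 and Hoxa10 (background 2.38%), and 0 lower (background 6.72%). The class holds only 58 and 66 cells, in which its 8 markers summed to 2840 CPM and 1761 CPM, with 1 of the 8 at 0 in the adult-labelled library, against 2.44 CPM and 3.25 CPM in fibroblast-like cells. When names were given cell by cell from markers, without clusters, only 7 and 4 cells were so named, and the adult-labelled ratios fell to 0.883 for Hoxa9 and 0.861 for Hoxa10. Tenocyte markers summed to 5834 CPM and 3015 CPM in these cells, and their part was not tested.

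Pericyte-like cells, which wrap capillaries, carried more of several 3' and middle Hox genes and few UMIs of the limb identity factors. Hoxa7 stood at 69.9 CPM and 66.9 CPM, 3.78 times (3.06-4.63) and 2.95 times (2.38-3.63) the fibroblast-like level, and Hoxa9 at 89.5 CPM and 75.2 CPM, ratios of 3.07 (2.55-3.66) and 2.28 (1.86-2.76). Hoxc6 stood at 96.0 CPM and 85.6 CPM, ratios of 2.71 and 1.84. Of the more 3' genes, Hoxa3 had ratios of 4.40 and 4.003, Hoxa5 of 3.79 and 2.80, Hoxb3 of 4.77 and 7.39 and Hoxb4 of 3.48 and 4.50. Hoxb2, a gene of the hindbrain and neck domain, stood at 26.1 CPM and 45.5 CPM, ratios of 2.89 (2.03-4.01) and 7.52 (5.69-9.80). All of these lay above their fibroblast-like level in both libraries.

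Not all Hox genes were higher in pericyte-like cells. Of the middle genes, Hoxc8 had ratios of 1.35 (1.04-1.72) and 0.99 (0.74-1.31). Hoxb6 had 1 UMI in each library, ratios of 0.64 and 0.54, Hoxb5 had 0 and 2 UMIs and Hoxb7 0 and 5. Hoxa10 had ratios of 0.85 (0.65-1.10) and 1.04 (0.84-1.27) and Hoxc10 of 0.87 (0.68-1.10) and 0.71 (0.54-0.93). Hoxc11 had 4 and 11 UMIs, ratios of 0.20 (0.05-0.51) and 0.43 (0.22-0.78). Groups 11 to 13 held 1.47% and 2.65% of Hox UMIs, against 5.75% and 7.50% in fibroblast-like cells, and groups 1 to 4 held 19.0% and 21.2%. Tbx4 had 0 UMIs in both libraries, where 3 UMIs would be 1.96 CPM in the E10-labelled cells, Pitx1 had 0 and 3 UMIs and Tbx5 had 3 in each. Of 8 members countable at 20 predicted UMIs, 2 were higher, Hoxa7 and Hoxa9 (background 7.66%), and 0 lower (background 12.1%). Of 20 countable at 5 predicted UMIs, 8 were higher, Hoxa3, Hoxa5, Hoxa7, Hoxa9, Hoxb2, Hoxb4, Hoxc5 and Hoxd8 (background 10.2%) and 4 lower, Hoxc11, Tbx4, Tbx5 and Pitx1 (background 11.9%). Median depth was 3140.5 and 3203 UMIs, below the 8571 and 7666.5 of fibroblast-like cells, and the fibroblast markers summed to 4708 CPM and 10311 CPM, next to 23678 CPM and 21930 CPM of the 7 pericyte markers. With every cell thinned to 1500 UMIs, the ratios were 3.67 and 2.95 for Hoxa7, 2.33 and 2.87 for Hoxa9, 2.90 and 6.09 for Hoxb2 and 2.25 and 1.34 for Hoxc6.

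SMC progenitor-like cells, like pericyte-like cells, had few limb factor transcripts, and HoxB genes were high in them. Hoxb2 stood at 68.8 CPM (59.0-79.7) and 31.0 CPM, 7.61 times (6.33-9.12) and 5.11 times (3.2-7.80) the fibroblast-like level. Hoxb4 stood at 28.7 CPM and 24.2 CPM, ratios of 5.27 (4-6.88) and 4.94 (2.88-7.94), and Hoxb3 at 16.5 CPM and 13.5 CPM, ratios of 7.54 and 6.01. High levels of these genes were not particular to the class. In the 215 vascular smooth muscle-like cells of the E10-labelled library Hoxb2, Hoxb3 and Hoxb4 had ratios of 3.14, 2.55 and 2.61. In cycling cells Hoxb2 had ratios of 4.31 (3.69-5.02) and 1.17 (0.32-3.01). HoxB genes held 19.2% (17.3-21.3) and 10.3% (7.81-13.2) of Hox UMIs. Hoxa7 was 2.55 times and 2.20 times and Hoxc6 2.15 times and 2.03 times as high as in fibroblast-like cells, and Hoxc4 1.68 times and 2.89 times. Tbx4 had 0 UMIs in both libraries, Tbx5 had 1 and 0 and Pitx1 had 1 and 2. Low limb factor levels were also seen elsewhere. Ratios of Tbx4, Tbx5 and Pitx1 were 0.21 (0.10-0.39), 0.14 (0.06-0.27) and 0.66 (0.46-0.91) in E10-labelled cycling cells. They were 0.16, 0.50 and 0.13 in E10-labelled perineurial-like cells and 1.54, 0.21 and 0.11 in adult-labelled endoneurial-like cells. In the other library of each of these classes all intervals included 1. The class held 2544924 and 742724 UMIs of all genes, against 43377444 and 58442049 in fibroblast-like cells. Its counts are small, above all in the adult-labelled library, and the part of class size in the low counts was not tested. With 6 members countable at 20 predicted UMIs, 1 was higher, Hoxc6 (background 3.01%), and 0 lower (background 11.0%). With 13 countable at 5, 2 were higher, Hoxa7 and Hoxc6 (background 4.61%), and 2 lower, Tbx5 and Pitx1 (background 9.22%). The fibroblast markers summed to 2680 CPM and 3958 CPM here, and the 6 markers of the class itself to 2914 CPM and 3173 CPM, against 424 CPM and 482 CPM in fibroblast-like cells but 4941 CPM and 4486 CPM in pericyte-like cells. Pericyte markers summed to 8997 CPM and 8384 CPM and vascular smooth muscle markers to 8507 CPM and 8051 CPM in the class, which its own markers thus do not set apart from mural cells, and the part of these in the result was not tested.

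**Figure D3:**
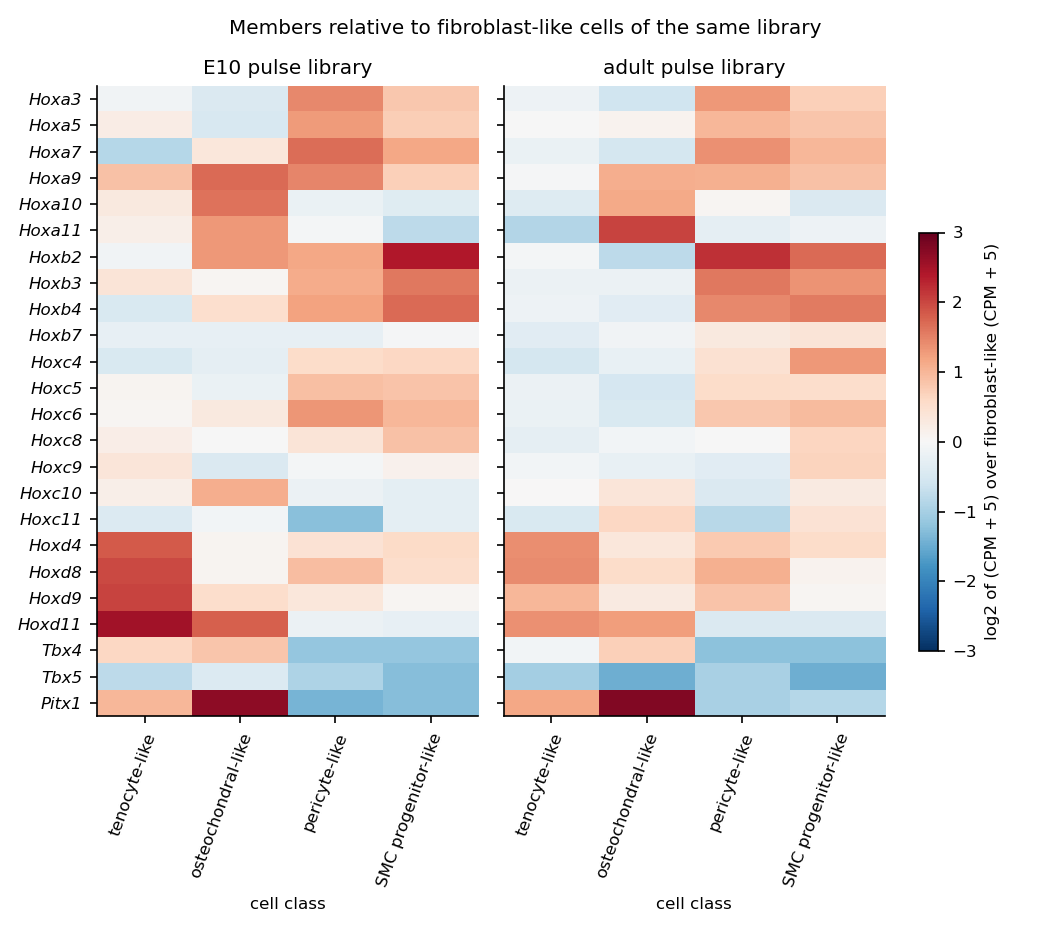
Colour gives the log2 ratio of the level (CPM plus 5) in tenocyte-, osteochondral-, pericyte- and SMC progenitor-like cells to that in fibroblast-like cells for the 24 members that reached 100 UMIs (rows), in each library (columns). HoxD genes are high in the tenocyte-like columns, Hoxb2, Hoxb3 and Hoxb4 in the pericyte- and SMC progenitor-like columns, and Tbx4, Tbx5 and Pitx1 are low in those last columns.

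The few endothelial-like cells were rich in HoxB and, summed over genes, poor in groups 9 and 10. Pericyte markers summed to 7694 CPM and 1622 CPM in them, next to 5286 CPM and 6467 CPM of the 7 endothelial markers, and their part in the pattern was not tested. HoxB genes held 41.3% (27.0-56.8) and 36.1% (27.5-45.4) of Hox UMIs. Hoxb7 stood at 84.7 CPM and 41.0 CPM from 7 and 9 UMIs, against 0.92 CPM and 1.87 CPM in fibroblast-like cells, and Hoxb4 at 60.5 CPM and 59.2 CPM from 5 and 13 UMIs. Hoxa10, one of the highest Hox genes in fibroblast-like cells, had 0 UMIs in both libraries, and groups 9 and 10 together held 13.04% (4.94-26.3) and 8.40% (4.10-14.9). Not every 5' gene was low. Hoxc11 had 0 and 7 UMIs, the latter 1.82 times (0.73-3.77) the fibroblast-like level. Hoxd9 had 3 and 1 UMIs, ratios of 9.96 (2.03-29.7) and 0.90 (0.02-5.07). Schwann-like cells had the lowest sums of the 12 named classes, 219 CPM and 276 CPM over all Hox genes, against 354 CPM and 422 CPM in fibroblast-like cells, 534 CPM and 420 CPM in tenocyte-like cells, 623 CPM and 652 CPM in pericyte-like cells and 673 CPM and 606 CPM in osteochondral-like cells. The sums are levels per UMI, so fewer cells with a Hox transcript and less of it per cell cannot be told apart.

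The limb identity factors differed several-fold among the fibroblast-like clusters, each in its own pattern. In the adult-labelled library, over the 6 clusters with at least 200 cells, Tbx5 ran from 0.92 CPM (0.19-2.70) in cluster 10 (leading genes Fmo2 and Gdf10) to 22.3 CPM (19.6-25.3) in cluster 3 (Smpd3 and Dact2). Pitx1 ran from 1.80 CPM (1.25-2.52) in cluster 1 (Smoc2 and Hmcn2) to 21.4 CPM (18.8-24.4) in cluster 3. Tbx4 ran from 2.12 CPM (1.35-3.19) in cluster 3 to 11.05 CPM (8.47-14.2) in cluster 7 (Clu, Meox1 and Comp) and 10.1 CPM (8.69-11.6) in cluster 1. Cluster 3 thus joined the highest Tbx5 and Pitx1 with the lowest Tbx4, and cluster 1 joined high Tbx4 with low Tbx5 (3.66 CPM) and Pitx1. Other clusters broke that contrast, since cluster 7 had Pitx1 at 9.44 CPM along with its high Tbx4, and cluster 10, the lowest in Tbx5, had Pitx1 at 11.7 CPM and Tbx4 at 3.69 CPM. The lowest of these values rests on 3 Tbx5 UMIs in cluster 10.

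A like contrast was seen between a pair of clusters of the E10-labelled library. Cluster 2 (Dmkn and Il1r2) had Tbx5 at 10.7 CPM (9.30-12.3), Pitx1 at 13.3 CPM (11.7-15) and Tbx4 at 2.91 CPM (2.20-3.76), while cluster 5 (Aldh1a2) had Tbx5 at 6.36 CPM, Pitx1 at 2.49 CPM (1.64-3.62) and Tbx4 at 10.8 CPM (8.91-12.9). Cluster 7 was high in both Tbx4, at 11.7 CPM, and Pitx1, at 10.8 CPM. Pitx1 was 5.35 times (3.59-8.27) as high in the highest as in the lowest of the 4 clusters of that library, Tbx4 4.03 times (2.43-6.52) and Tbx5 1.78 times (1.32-2.44). Emx2, a homeobox gene of the shoulder girdle and limb, had its highest level in the same cluster of each library as Pitx1. It stood at 62.2 CPM in cluster 2 of the E10-labelled library and 57.0 CPM in cluster 3 of the adult-labelled library. The match did not hold in cluster 10 of the adult-labelled library, where Emx2 was lowest, at 9.53 CPM, with Pitx1 at 11.7 CPM. Clusters 2 and 5 held 1651 and 1324 cells of the E10-labelled library and 27 and 36 of the other, and clusters 1 and 3 held 2428 and 1381 cells of the adult-labelled library and 25 and 27 of the other, so cluster and library can hardly be told apart for these values.

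**Figure D4:**
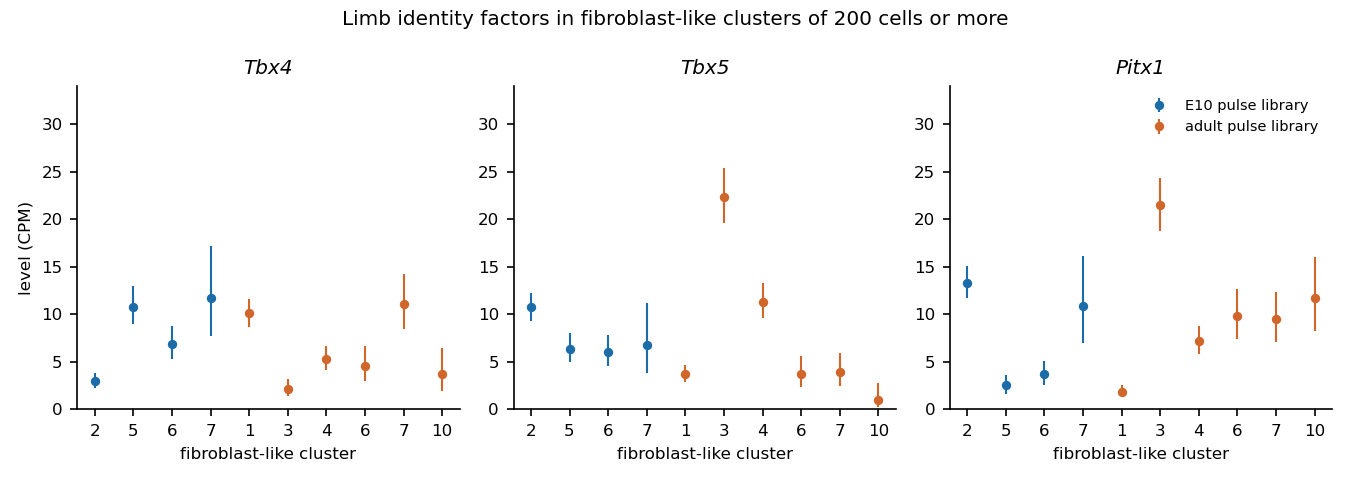
Levels in CPM (vertical axes) of Tbx4, Tbx5 and Pitx1 in each fibroblast-like cluster with at least 200 cells of the library (horizontal axes), with bars for 95% counting intervals. Clusters 2 and 3 combine low Tbx4 (2.91 and 2.12 CPM) with high Tbx5 and Pitx1, clusters 1 and 5 high Tbx4 with low Pitx1, and cluster 7 high Tbx4 with high Pitx1.

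Of the Hox genes, the abundant HoxA and HoxC members had narrower ranges. Hoxa10 ran from 38.9 CPM to 55.9 CPM in the E10-labelled library and from 52.9 CPM to 115 CPM, in cluster 10, in the adult-labelled library. Hoxc10 ran from 39.8 CPM to 74.8 CPM and from 40.1 CPM to 80.9 CPM, with the lowest level in the clusters low in Tbx4, 2 and 3. HoxD genes had wider ranges, and cluster 7 had the highest Hoxd8 in both libraries, 26.6 CPM (20.2-34.3) and 20.1 CPM (16.6-24.2), against 2.47 CPM (1.56-3.70) and 5.56 CPM (3.82-7.80) in cluster 6 (Cfd, Apoe and Fgf10). Hoxd9 followed, at 9.47 CPM and 10.9 CPM in cluster 7 against 1.82 CPM and 1.85 CPM in cluster 6. Meox1 and Meox2, homeobox genes of the somite, were likewise high in cluster 7, Meox2 at 372 CPM and 333 CPM. Hoxb4 ran from 1.07 CPM in cluster 7 to 12.9 CPM (9.31-17.5) in cluster 10 of the adult-labelled library, where Hoxb7, Hoxb8 and Hoxb9 also had 16, 13 and 10 UMIs.

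Counting members whose highest cluster passed 2-fold over the lowest, where at least 20 UMIs were predicted, gave 0 of 9 countable members in the E10-labelled library (background 17.6%) and 7 of 14 in the adult-labelled library (background 25.3%), namely Hoxa10, Hoxa11, Hoxc10, Hoxd8, Tbx4, Tbx5 and Pitx1. Hoxd8, Pitx1 and Tbx4, with ratios of 10.8, 5.35 and 4.03 in the E10-labelled library, were among the members not countable there. The count of that library also depends on how finely cells were clustered. At a Leiden resolution of 1.0 it was 10 of 11, where 40.3% of all countable genes passed. With the members among the clustering genes it was 9 of 11, against 32.9%. The number of clusters also differs between libraries, 4 and 6, so the counts of the libraries are not compared.

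Between the libraries, fibroblast-like cells had mostly lower Hox levels in the E10-labelled than in the adult-labelled library, by small amounts. Of 31 members countable at 20 predicted UMIs, 0 passed 2-fold higher (background 5.16%) and 3 passed 2-fold lower, Hoxa11, Hoxb7 and Hoxd10 (background 5.65%). The median ratio of E10-labelled to adult-labelled levels was 0.839 over these members and 1.04 over all countable genes, and 24 members (77.4%) lay below 1 and 7 above, where 43.7% of all countable genes lay below 1. Hoxa11 had 215 and 647 UMIs, 4.96 CPM and 11.1 CPM, a ratio of 0.45 (0.38-0.52), and Hoxa10 a ratio of 0.69 (0.65-0.73). Hoxb7 stood at 0.92 CPM and 1.87 CPM, 0.49 (0.34-0.72), and Hoxd10 rested on 16 and 47 UMIs, 0.46 (0.24-0.82). Below the counting limit, Hoxa13 had 7 and 33 UMIs and Hoxb8 3 and 29.

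The 7 members above 1 were Hoxa3, Hoxa4, Hoxb2, Hoxb4, Hoxc4, Hoxc5 and Hoxd4, while Hoxa2, Hoxb3, Hoxa5 and Hoxb5, of the same range of paralogue groups, lay below 1. Hoxc5 stood at 6.41 CPM and 4.02 CPM, a ratio of 1.59 (1.33-1.90), Hoxb2 at 9.04 CPM and 6.06 CPM, 1.49 (1.29-1.73), and Hoxd4 at 2.07 CPM and 1.15 CPM, 1.81 (1.30-2.52). Hoxc10 was close in both libraries, with a ratio of 0.96 (0.91-1.02), and so were the limb factors, with ratios of 0.92 (0.79-1.08) for Tbx4, 0.92 (0.80-1.05) for Tbx5 and 0.91 (0.80-1.05) for Pitx1.

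The 2 libraries filled different clusters, so the ratios were also taken in clusters 6, 7 and 10, the only fibroblast-like clusters with at least 100 cells of each, a choice made after the data were seen. Hoxa10 and Hoxa11 stayed lower in the E10-labelled library there, at 0.607 (0.549-0.670) and 0.428 (0.329-0.553), and Hoxb2 and Hoxc5 stayed higher, at 1.84 (1.36-2.48) and 1.76 (1.22-2.58). Pitx1 and Tbx5 parted in those clusters. Pitx1 stood at 4.75 CPM and 10.1 CPM, a ratio of 0.472 (0.343-0.642), and Tbx5 at 5.88 CPM and 3.18 CPM, a ratio of 1.85 (1.27-2.73), while Tbx4 had a ratio of 1.10 (0.819-1.47). Hoxc10 moved to 1.26 (1.14-1.38). Hoxd4 did not stay higher, with a ratio of 0.795 (0.454-1.37). The clusters differed. In cluster 6 Hoxa10 had a ratio of 0.546 (0.476-0.625), Pitx1 of 0.373 (0.237-0.580) and Hoxb2 of 2.66 (1.66-4.46), whereas in cluster 7 Hoxa10 had 0.861 (0.690-1.07) and Pitx1 1.15 (0.676-1.89), and in cluster 10 Pitx1 had 1 and 38 UMIs, a ratio of 0.098 (0.0024-0.581). Hoxa10 had a ratio of 0.845 (0.660-1.07) in cluster 10. Hoxb2 had 1.57 (0.720-3.28) in cluster 7 and 1.36 (0.638-2.69) in cluster 10. Hoxc5 had 1.98 (1.16-3.51) in cluster 6, 1.86 (0.771-4.32) in cluster 7 and 0.932 (0.227-2.89) in cluster 10. For each of these genes only the interval of cluster 6 excluded 1. Tbx5 had ratios of 1.62, 1.72 and 2.49 in clusters 6, 7 and 10, each with an interval that included 1. Hoxa11 lay below 1 in each of the 3, at 0.334, 0.467 and 0.593, although in cluster 10, with 7 and 44 UMIs, the interval (0.225-1.33) included 1.

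Genes that work with or on the Hox genes were read from 4 lists, of whose 70 genes 64 were in the files. The cofactors of the Meis and Pbx families, which bind DNA together with Hox proteins, were steady, with 0 of 9 past 2-fold in either direction between the libraries. Meis2 stood at 59.3 CPM and 54.9 CPM in fibroblast-like cells. Of the noncoding RNAs of the Hox clusters 0 of 5 countable genes passed, and Hotair, transcribed within HoxC, stood at 1.43 CPM and 2.52 CPM. A list of regulators of the Hox clusters held chromatin proteins, Cdx factors and Gdf11. Of its 13 countable genes, Gdf11, a secreted factor that sets trunk Hox domains, was higher (ratio 2.18, 1.77-2.69) and Cbx7, a Polycomb protein, lower (ratio 0.50, 0.44-0.57). Of 26 limb and axial patterning factors 0 were higher and 4 lower, Isl1, Lhx9, Tcf15 and Pax1, of which Tcf15, a somite factor, stood at 2.79 CPM and 11.6 CPM. These shares can be read against the 5.16% and 5.65% above.

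By class, calls at 20 predicted UMIs were found among the patterning factors and, in pericyte-like cells, the cofactors, while the Hox cluster regulators had 0 in each of the 4 classes and the noncoding RNAs had no countable gene. In tenocyte-like cells Meox1 and Meox2 were higher, with ratios of 3.41 and 3.16 and of 3.43 and 3.03, and En1 and Emx2 lower, out of 12 countable patterning factors (background 2.32% higher and 8.36% lower). In pericyte-like cells 2 of 13 were higher, Tbx3 with ratios of 12.5 and 9.59 and Tcf15 at 361 CPM and 512 CPM, and 7 were lower, En1, Prrx2, Msx1, Tbx15, Emx2, Twist1 and Meox1 (background 7.66% and 12.1%). Pbx2 was the only one of 6 cofactors past 2-fold there, with ratios of 2.68 and 2.29. In SMC progenitor-like cells Shox2, a homeobox gene of the upper limb segment, and Meox2 were higher and Prrx2 and Meox1 lower, of 10 (background 3.01% and 11.0%). In osteochondral-like cells Prrx1 and Prrx2, homeobox genes of limb mesenchyme, were higher, with ratios of 2.51 and 2.62 and of 3.28 and 4.02, and Msx1 lower, of 6 (background 1.90% and 8.91%). En1, Prrx2 and Emx2 in pericyte-like cells stood between 3.27 CPM and 8.97 CPM, next to the near absence of Tbx4, Tbx5 and Pitx1 UMIs, while all Hox genes together stood at 623 CPM and 652 CPM.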

How the data were processed

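Single-cell suspensions of sorted tdTomato+ cells were captured with 10x Chromium 3' kits (v2 or v3 per the labels). Per the file headers and the submitters' processing notes, the authors aligned reads to mm10 and made the UMI count matrices with Cell Ranger, version 5.0.0 for the E10-labelled and 3.0.2 for the adult-labelled library. The study removed small clusters of other cells downstream, and no cluster was removed here. Values used here are the deposited counts as they stand, 1 filtered matrix per library, with all samples grouped by their labels.

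The cell filter was a minimum of 1500 UMIs and a mitochondrial limit of 10%. Counts were scaled to 10000 per cell and log-transformed. Both libraries were clustered together on 2000 variable genes without the members and the genes of the other lists. The settings were 30 principal components, 20 neighbours and Leiden resolution 0.5, with leidenalg 0.10.2 and scikit-learn 1.9.0. Doublet scores, used only for an alternative named below, came from scanpy 1.11.5. Clusters were named where at least 3 markers of a list were detected and led, and a name other than fibroblast-like also needed 1 of its markers among the 10 leading genes, a rule set after a first run. UMIs were then summed per class and library and given as CPM. Intervals for levels are exact Poisson, those for ratios exact conditional binomial and those for shares Clopper-Pearson (scipy 1.17.1), all at 95% and for counting error only. With 1 library per group no test was made, and a gene was called where its ratio passed 2-fold with at least 20 UMIs predicted from its level over both groups compared. The steps were tested on simulated data. Members, gene lists and markers were chosen with earlier results of these data known. Genes named are the members, with their values, and list genes that passed 2-fold or are the best known of their list. The alternatives tried were a UMI minimum of 3000, a mitochondrial limit of 20%, Leiden resolution 1.0, other count limits and folds, thinning, another CPM denominator, leaving out cells with the 5% highest doublet scores, and other ways of clustering and naming cells. Promoters were read from RefSeq (GRCm38.p6), which held 23 of the 41 members, and gene positions from GENCODE on GRCm38.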

Additional observations from a re-analysis of the deposited data

Results flagged for a closer look

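For 5 members the ratio of the E10-labelled to the adult-labelled library went in opposite directions in different classes of cells, with 95% counting intervals that did not overlap each other. These members were picked because they met this rule in some pair of classes. The share of all genes that meet it is not given, so the number of members has no background. The differences between classes were not tested, since each library is 1 sample. Hoxa9 had a ratio of 1.79 in tenocyte-like cells and 0.884 in fibroblast-like cells, and Hoxd9 had 1.99 and 0.722 in the same classes. Hoxb2 was higher in the E10-labelled library in fibroblast-like cells (1.49), in SMC progenitor-like cells (2.22) and in cycling cells (5.51) and lower in pericyte-like cells (0.574). The value in cycling cells rests on 4 Hoxb2 UMIs in the 28 cycling cells of the adult-labelled library. Hoxc4 had a ratio of 1.10 in fibroblast-like and 0.639 in SMC progenitor-like cells. Hoxc10 had a ratio of 1.65 in osteochondral-like cells, 0.629 in SMC progenitor-like cells and 0.442 in cycling cells.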

How the results depend on the processing

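Of 1102 alternative values, 969 stayed within the counting interval of the main value (for counts, within 1.5 times), 131 moved further and 2 reversed. Part of the 969 could not have moved, because the fold and the limit on predicted UMIs enter only the counts of members. Ratios under those settings repeat the main ratios. They make up most of the 80 values at 1.5-fold, the 80 at 100 predicted UMIs and the 47 at 5, so the tally overstates stability. A reversal was called only where a main ratio of at least 2-fold, with an interval that excluded 1, changed to the other side of 1. Smaller ratios that crossed 1 were not called reversed. The 10 alternative counts of detected members did not change beyond 1.5 times. A limit of 5 predicted UMIs, leaving out cluster 6 and using only clusters with 100 cells of each library were alternatives chosen after the data were seen. Between libraries, the 0 members past 2-fold higher in the E10-labelled library became 1 with a UMI minimum of 3000, 2 at 1.5-fold and 1 without cluster 6, and the 3 lower became 1 with 100 predicted UMIs and 0 in cells thinned to 1500 UMIs. In tenocyte-like cells the 0 higher became 2 with 5 predicted UMIs, and the 0 lower became 1 at that limit and 1 at 1.5-fold. In pericyte-like cells the 2 higher became 1 with a UMI minimum of 3000, 1 when thinned, 0 with 100 predicted UMIs and 8 with 5, and the 0 lower became 1 with a mitochondrial limit of 20%, 1 with CPM outside mitochondrial and ribosomal protein genes and 4 with 5 predicted UMIs. In SMC progenitor-like cells the 1 higher became 0 with a UMI minimum of 3000, 0 with 100 predicted UMIs, 0 when thinned, 3 at 1.5-fold and 2 with 5 predicted UMIs, and the 0 lower became 2 at that last limit. In osteochondral-like cells the 0 higher became 1 with the mitochondrial limit of 20%, 1 at resolution 1.0 and 2 with 5 predicted UMIs. The only reversals by the rule above were Hoxa9 (0.883) and Hoxa10 (0.861) in the 4 adult-labelled cells called osteochondral-like from their own markers alone. Over clusters, the 0 members of the E10-labelled library became 10 at resolution 1.0, 9 with members among the variable genes and 2 with CPM outside mitochondrial and ribosomal protein genes, and the 7 of the adult-labelled library became 2 with 100 predicted UMIs and 3 when thinned. The share of fibroblast-like cells with any Hox UMI became 38.7% with a UMI minimum of 3000 in the E10-labelled library, and 63.0% and 68.0% in the 2 libraries when thinned to 3000 UMIs. The limit of 100 predicted UMIs and thinning leave fewer genes to count and the limit of 5 leaves more, and the cause of the other moves was not tested. With each library clustered alone, osteochondral-like cells of the E10-labelled and SMC progenitor-like cells of the adult-labelled library formed no cluster, so these values could not be had. No paired analysis was possible because each group is 1 library.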
